A study of Mus musculus with 6 samples.

Results

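The oligoadenylate synthetase family was described as 5 genes, Oas1a, Oas2, Oas3, Oasl1 and Oasl2, of 19938 genes with a probe set of their own on the array. Members were taken by gene symbol, each through its probe set with exactly 1 symbol. The family was picked with the difference between diabetic and wild type marrow already known, so that difference is given as a description, and the members' calls in the fit across all genes are counted but support nothing. All 5 members lay above the level filter, a mean log2 signal of 7.52 over the 6 arrays, and 11940 genes did so. Each member was also above it in diabetic marrow alone.

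Bone marrow RNA was measured on 6 Affymetrix gene arrays, 3 of diabetic and 3 of wild type mice, all males of 10 weeks. The labels place both groups on the BKS background. Leprdb is the db allele of the leptin receptor gene, the standard cause of obesity and type 2 diabetes on that background. The genotype labels of both groups name this allele, so the alleles of the wild type animals are known only as far as their group name goes. The marrow was flushed from the shafts of femurs and tibiae and was neither treated nor sorted, so each array read a mixture of cells. Nothing in the sources used here says whether the RNA of an array came from 1 animal or several, and p-values then cover only the spread between these samples, which may be technical. Values are log2 signals from robust multi-array averaging, RMA, with array medians between 7.67 and 7.73, and 3 arrays per group limit the precision. Signals of S100a8 (a neutrophil protein), between 13.3 and 13.5 on every array, of Alas2 (heme synthesis in red cell precursors), between 13.2 and 13.5, and of Cd79a (B cell receptor signalling), between 11.4 and 12.3, were far above these medians, so defining markers of marrow cells were present.

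Oligoadenylate synthetases are enzymes that interferon induces. When they bind double-stranded RNA, as in a virus-infected cell, they join ATP into short 2′-5′-linked oligoadenylates, small signal molecules of the antiviral response. The OAS-like proteins share the fold and carry ubiquitin-like domains, and not all of them make oligoadenylates. Macrophages and other immune cells of the marrow keep a low level of these transcripts without infection.

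Promoter sequences were taken for the members because the family is known to be induced through interferon-stimulated response elements (ISRE), to which the factor ISGF3, which holds Stat2 and Irf9, binds. The RefSeq table of GRCm38.p6 gave a window of 300 bases, 250 before and 50 after a transcript start, for Oas1a, Oas3, Oasl1 and Oasl2, 4 of 5 members. Each window is printed in the direction of its gene, with matches to the ISRE core, GAAA and again GAAA with any 2 bases between them, searched on both strands, in capitals.
Oas1a, chr5:120907476-120907775, minus strand: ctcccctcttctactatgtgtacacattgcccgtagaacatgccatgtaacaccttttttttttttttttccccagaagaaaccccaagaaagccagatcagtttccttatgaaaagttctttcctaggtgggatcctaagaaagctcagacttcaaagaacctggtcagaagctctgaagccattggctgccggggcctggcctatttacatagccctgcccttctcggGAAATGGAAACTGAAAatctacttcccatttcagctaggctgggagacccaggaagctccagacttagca
Oas3, chr5:120777610-120777909, minus strand: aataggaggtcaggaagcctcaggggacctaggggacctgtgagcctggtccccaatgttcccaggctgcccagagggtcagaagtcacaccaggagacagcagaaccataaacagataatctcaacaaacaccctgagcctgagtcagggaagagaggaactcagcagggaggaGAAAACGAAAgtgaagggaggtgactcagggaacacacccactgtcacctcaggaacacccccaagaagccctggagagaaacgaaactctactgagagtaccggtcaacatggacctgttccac
Oasl1, chr5:114922990-114923289, plus strand: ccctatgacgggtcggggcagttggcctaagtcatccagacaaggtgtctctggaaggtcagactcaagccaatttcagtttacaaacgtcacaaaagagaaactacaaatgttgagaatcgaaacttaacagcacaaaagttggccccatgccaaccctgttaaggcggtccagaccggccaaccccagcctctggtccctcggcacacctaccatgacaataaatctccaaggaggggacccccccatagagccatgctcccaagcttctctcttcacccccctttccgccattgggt
Oasl2, chr5:114896684-114896983, plus strand: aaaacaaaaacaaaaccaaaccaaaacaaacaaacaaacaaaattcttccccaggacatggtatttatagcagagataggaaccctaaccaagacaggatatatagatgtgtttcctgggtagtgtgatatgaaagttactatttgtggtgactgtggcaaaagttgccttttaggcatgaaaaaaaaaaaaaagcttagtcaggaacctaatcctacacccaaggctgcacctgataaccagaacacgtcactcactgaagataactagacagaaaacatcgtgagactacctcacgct

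The window of Oas1a held 2 matches, GAAATGGAAA and GAAACTGAAA, which overlap and begin 20 and 14 bases before the start. The window of Oas3 held 1, GAAAACGAAA, 75 bases before the start. The windows of Oasl1 and Oasl2 held none, which says only that these letters are not in these windows. Of 32851 windows of the same length in the table, 3.44% held a match. Among the Oas1 genes that are no members, Oas1g and Oas1c also held 2 matches each, while Oas1f and Oas1h held none. The pattern TTCNNNGAA of the gamma-activated site, an element of the response to interferon gamma, occurred once in the Oas1a window, as TTCAAAGAA 98 bases before the start, in no other Oas window, and in 8.30% of all windows. These matches describe letters and not binding.

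The first group of members makes oligoadenylates. Oas1a, the synthetase of a single catalytic unit, had log2 signals of 8.17, 7.97 and 7.82 on diabetic arrays 1, 2 and 3, against 8.88, 9.004 and 9.06 on wild type arrays 1, 2 and 3. All diabetic arrays were below all wild type arrays, with a gap of 0.71 between the highest diabetic and the lowest wild type value. The means were 7.99 ± 0.18 in diabetic and 8.98 ± 0.09 in wild type marrow (SD, n = 3 each), a log2 change of -0.99 ± 0.10 (SE), or 1.99-fold lower.

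Oas2 is a larger synthetase built of repeated units. It had log2 signals of 9.09, 8.68 and 8.65 on the diabetic arrays, against 10.06, 10.58 and 10.26 on the wild type arrays. The groups were apart by 0.97, the widest gap of the 5 members, and diabetic replicate 1 was the highest of its group. Its log2 change of -1.49 ± 0.16 (SE, n = 3 per group), or 2.81-fold lower in diabetic marrow, was the largest in size of the family and stood at place 7 of 11940 genes ordered from the lowest change upward.

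Oas3, the largest synthetase, which favours long double-stranded RNA, had log2 signals of 9.63, 9.69 and 9.22 on the diabetic arrays, against 10.25, 10.78 and 10.93 on the wild type arrays. Here the gap was the smallest of the family, 0.57. The spread was also the widest, with an SD of 0.25 in diabetic and 0.36 in wild type marrow. Its log2 change was -1.14 ± 0.19 (SE, n = 3 per group), or 2.21-fold lower.

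Oasl1 and Oasl2 are the OAS-like members. Oasl1, which in mouse makes no oligoadenylates and is known to hold back translation of Irf7 mRNA, had log2 signals of 8.41, 8.57 and 8.50 on the diabetic arrays, against 9.25, 9.67 and 9.37 on the wild type arrays. Its diabetic arrays were the tightest of the family, with an SD of 0.08 (n = 3). The log2 change was -0.94 ± 0.11 (SE, n = 3 per group), or 1.91-fold lower, the smallest in size of the 5.

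Oasl2, which in mouse has kept synthetase activity, had log2 signals of 10.08, 9.62 and 10.01 on the diabetic arrays, against 10.96, 11.53 and 11.27 on the wild type arrays. The gap between the groups was 0.89. Its log2 change was -1.35 ± 0.16 (SE, n = 3 per group), or 2.55-fold lower in diabetic marrow.

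**Figure D1:**
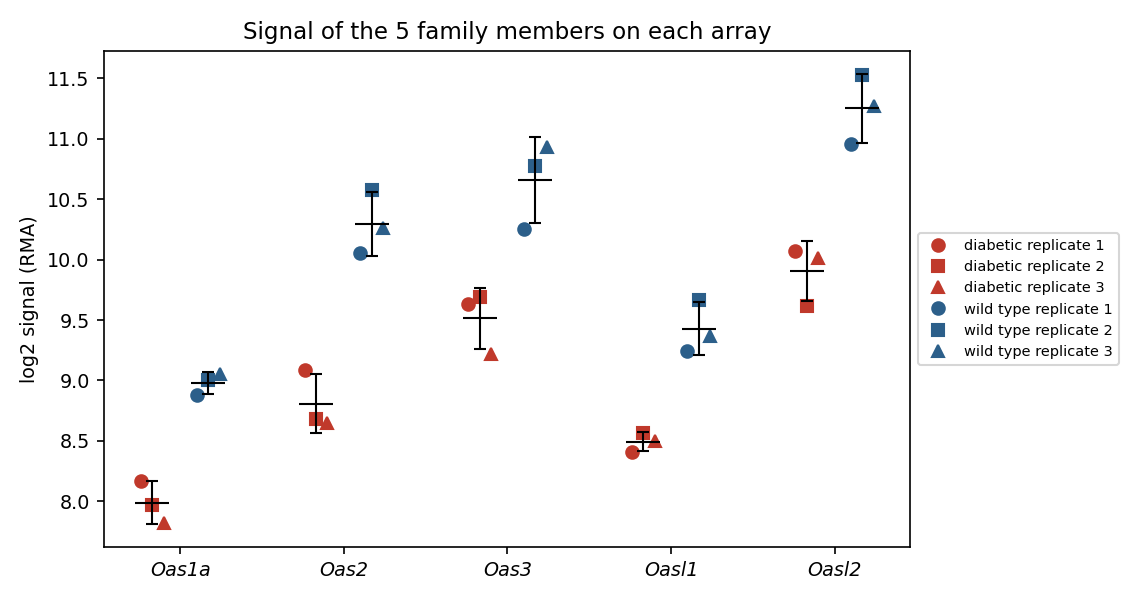
Log2 signal (RMA, vertical axis) of each member on every array, diabetic in red to the left of wild type in blue, with replicate numbers as symbols and the mean ± SD (n = 3) as black bars. For each of the 5 members every diabetic point lies below every wild type point, with gaps from 0.57 (Oas3) to 0.97 (Oas2).

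Of the 5 members, 4 were lower past an adjusted p of 0.05 (limma, Benjamini-Hochberg), and Oas3 missed it, while 0.327% of all genes tested were called lower. The groups did not overlap for 5 of 5 members, and 5.38% of all genes had diabetic arrays below all wild type arrays. Since the family was chosen on this contrast, neither share is read as a result. The median log2 change of the members was -1.14, and that of all 11940 genes was 0.00468. Only 21 genes, members included, had a log2 change as low as that of Oasl1. The number of members called was 2, 0 and 1 without diabetic replicate 1, 2 or 3, 2 without wild type replicate 2 and 5 without wild type replicate 1.

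The estimated size of the change was not the same for all members. The log2 change of Oas2 was lower than that of Oasl1 by 0.55 ± 0.18 and that of Oas1a was higher than that of Oas2 by 0.50 ± 0.14 (SE over arrays, n = 3 per group). Oasl1 exceeded Oasl2 by 0.41 ± 0.19. Oas1a and Oasl1 differed by -0.06 ± 0.17, less than the error, and the difference between Oas2 and Oasl2 was -0.14 ± 0.14, about as large as its error. These differences between members were not tested, since all come from the contrast that picked the family.

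Within each group the members did not all follow the same array. Wild type replicate 1 was the lowest of its group for all 5 members, at a mean deviation of -0.24 from the group means, while wild type replicate 2 was highest for Oas2, Oasl1 and Oasl2 and wild type replicate 3 for Oas1a and Oas3. In diabetic marrow, replicate 3 was lowest for Oas1a, Oas2 and Oas3, replicate 2 for Oasl2 and replicate 1 for Oasl1. After subtraction of the group means, Pearson's r between pairs of members over the 6 arrays, which share RNA, array and normalization, ran from 0.01 (Oas1a and Oasl1) to 0.79 (Oas2 and Oasl2).

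**Figure D2:**
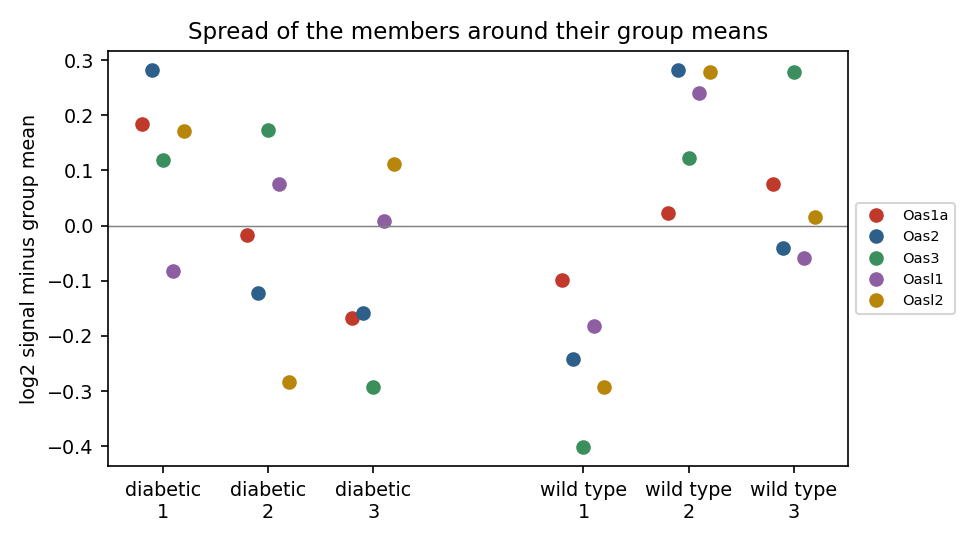
Log2 signal of each member minus the mean of its own group (vertical axis) on each diabetic and wild type array, 1 colour per gene. All 5 members lie below 0 on wild type replicate 1, and on each diabetic array members lie on both sides of 0.

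Other Oas1 genes on the array were given as values. A probe set that carries the symbols of both Oas1a and Oas1g had log2 signals of 7.91, 7.89 and 7.84 on the diabetic arrays, against 8.99, 9.73 and 9.64 on the wild type arrays, a difference of -1.57 ± 0.23 (SE over arrays, n = 3 per group), further from 0 than that of the Oas1a probe set. Which of both genes it read cannot be told. Oas1b, which the C57BL/6J reference annotates as a transcribed pseudogene and whose full-length form in other mice protects against flaviviruses, had 7.97, 8.20 and 8.06 on the diabetic arrays, against 8.62, 9.06 and 8.95 on the wild type arrays. Its groups did not overlap either, and its difference was -0.80 ± 0.15 (SE over arrays).

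The remaining 5 Oas1 genes with a probe set of their own, Oas1c, Oas1d, Oas1e, Oas1f and Oas1h, lay below the level filter, with mean log2 signals from 5.12 to 7.50. Their differences ran from -0.39 to -0.02, and diabetic and wild type arrays overlapped for 4 of them. The exception was Oas1c, with 7.19, 7.53 and 7.25 on the diabetic arrays, against 7.58, 7.84 and 7.64 on the wild type arrays. All these genes are close paralogs in 1 cluster, and probes of one may also have bound RNA of another.

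The family sits in 2 places on chromosome 5, the Oas1, Oas2 and Oas3 cluster and the Oasl1 and Oasl2 pair, and the 5 nearest tested genes on each side were taken by gene order alone, which gave 20 genes. None of these 20 neighbours passed the adjusted threshold in limma, and 0.410% of all genes did in either direction. At an unadjusted p under 0.05 in limma, 1 of the 20 was lower and 0 higher. Of all 11940 genes, 379, or 3.17%, were lower, and 855, or 7.16%, passed in either direction. Their median log2 change was -0.02, and 13 of 20 were below 0. At the cluster the ends of the range were Trafd1, a zinc finger protein that dampens innate immune signalling, at -0.34 ± 0.08 (SE, n = 3 per group, adjusted p = 0.299 in limma), and Hectd4 at 0.13 ± 0.13 (SE, n = 3 per group). At the pair they were Mlec, a lectin of the endoplasmic reticulum, at -0.11 ± 0.09, and Ankrd13a at 0.07 ± 0.05. Dtx1, a ubiquitin ligase of Notch signalling, and Rph3a, a protein of vesicle release, flank the cluster directly. They were at -0.13 ± 0.13 and -0.04 ± 0.08, and both were named after their values were seen.

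**Figure D3:**
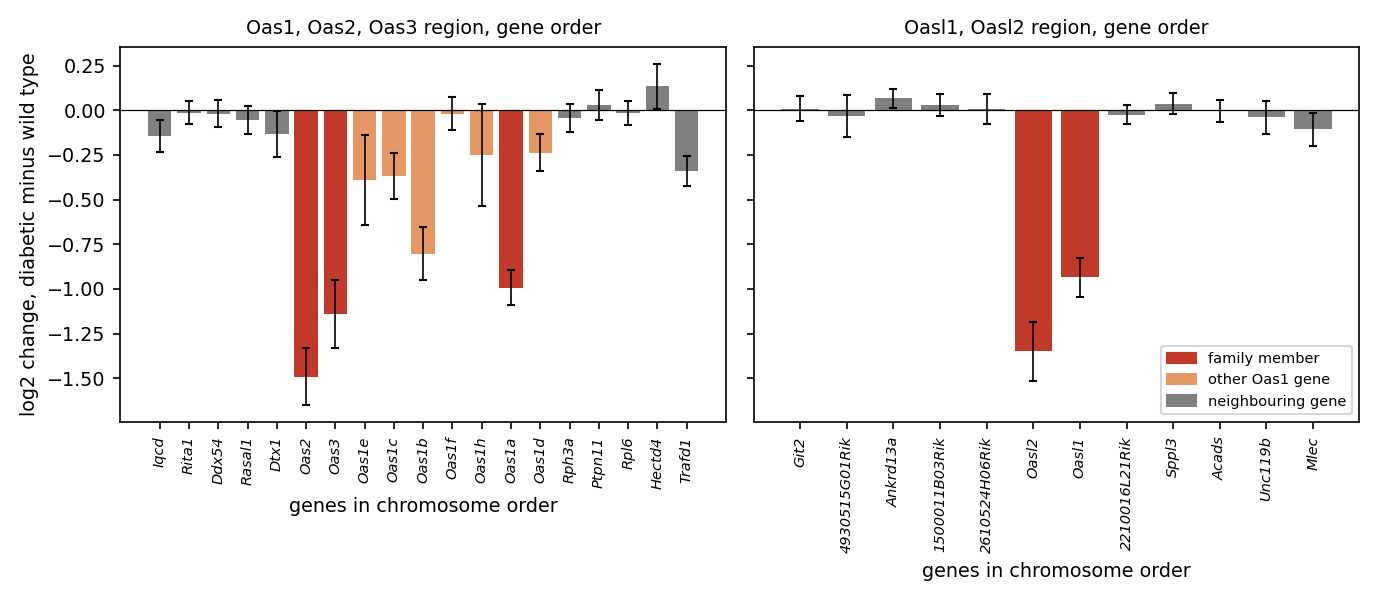
Log2 change, diabetic minus wild type (vertical axis), of Oas genes and their nearest tested neighbours in chromosome order, with bars of 1 SE (limma for members and neighbours, over arrays for the other Oas1 genes). Members run from -1.49 to -0.94 and neighbours from -0.34 to 0.13.

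Genes that act with or on the oligoadenylates were compared next, and 3 of the list were tested. Abce1, an ATPase that recycles ribosomes, had a log2 change of -0.05 ± 0.14 (SE, n = 3 per group). Pde12 and Akap7, phosphodiesterases that break down oligoadenylates, were at 0.01 ± 0.06 and -0.05 ± 0.13. None passed in limma, also not at an unadjusted p under 0.05, with adjusted p of 0.993, 0.997 and 0.993 after Benjamini-Hochberg adjustment, and the 95% intervals of the change ran from -0.37 to 0.26, from -0.13 to 0.15 and from -0.34 to 0.25.

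The interferon signalling list holds receptors, kinases, transcription factors and inhibitors of that signalling. Whether any of them changed before the Oas genes or together with them was not tested. Of its 20 genes 19 were tested, 4 passed, all lower in diabetic marrow, against 0.327% of all genes, and the median log2 change of the list was 0.00288, against 0.00468 over all genes. Irf9, the DNA-binding part of ISGF3, had log2 signals of 9.66, 9.77 and 9.78 on the diabetic arrays, against 10.35, 10.68 and 10.52 on the wild type arrays. It fell by 0.78 ± 0.09 (log2, SE, n = 3 each, adjusted p = 0.0194 in limma). Stat2, its partner, had 9.41, 9.41 and 9.52 on the diabetic arrays, against 9.89, 10.06 and 9.87 on the wild type arrays, and fell by 0.49 ± 0.07 (adjusted p = 0.0406 in limma).

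The other genes that passed in this list were Usp18 and Irf7. Usp18, which removes ISG15 and blocks signalling at the receptor, fell by 1.42 ± 0.16 (log2, SE, n = 3 each, adjusted p = 0.0177 in limma), and Irf7, which drives type I interferon genes, fell by 1.30 ± 0.17 (adjusted p = 0.0280 in limma). Socs1, an inhibitor of JAK kinases, was at -0.27 ± 0.07 (adjusted p = 0.285 in limma), and Jak2, a kinase of the interferon gamma receptor, was at 0.17 ± 0.06 (adjusted p = 0.564 in limma). The receptor genes Ifnar1 and Ifnar2 and the kinases Jak1 and Tyk2, named after their values were seen, were at -0.01 ± 0.06, 0.02 ± 0.06, 0.02 ± 0.07 and -0.03 ± 0.08. None of these 4 passed, and the 95% intervals of the receptor genes ran from -0.14 to 0.12 and from -0.11 to 0.16. The list count of 4 was 0 without diabetic replicate 1, 2 or 3 and 0 without wild type replicate 2. It was 3 when wild type replicate 1 was left out, since Stat2 missed the threshold (adjusted p = 0.0699 in limma).

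Of 10 other tested genes of the response to double-stranded RNA, 3 were lower past the threshold and 0 higher, against 0.327% of all genes lower. The median log2 change of this list was -0.47, against 0.00468 over all genes. Zbp1, a sensor of left-handed RNA and DNA, fell by 0.97 ± 0.10 (log2, SE, n = 3 each, adjusted p = 0.0143 in limma). Dhx58, a helicase that tunes RNA sensing, fell by 0.81 ± 0.09 (adjusted p = 0.0183 in limma), and Adar, which edits double-stranded RNA, fell by 0.49 ± 0.07 (adjusted p = 0.0406 in limma). Eif2ak2, the kinase PKR that halts translation on double-stranded RNA, was at -0.70 ± 0.13, and the sensors Ddx58 and Ifih1 at -0.45 ± 0.08 and -0.76 ± 0.18. These last 3 did not pass, with adjusted p of 0.104, 0.104 and 0.280 in limma. The other tested genes of the list, Mavs, Tarbp2, Prkra and Dicer1, did not pass either and were named after their values were seen. They were at -0.10 ± 0.09, -0.08 ± 0.07, -0.05 ± 0.07 and 0.08 ± 0.06 (SE, n = 3 per group). The count of 3 was 0 without diabetic replicate 1, 2 or 3, 1 without wild type replicate 2 and 5 without wild type replicate 1. Adar also missed the threshold when wild type replicate 3 was left out (adjusted p = 0.0562 in limma).

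**Figure D4:**
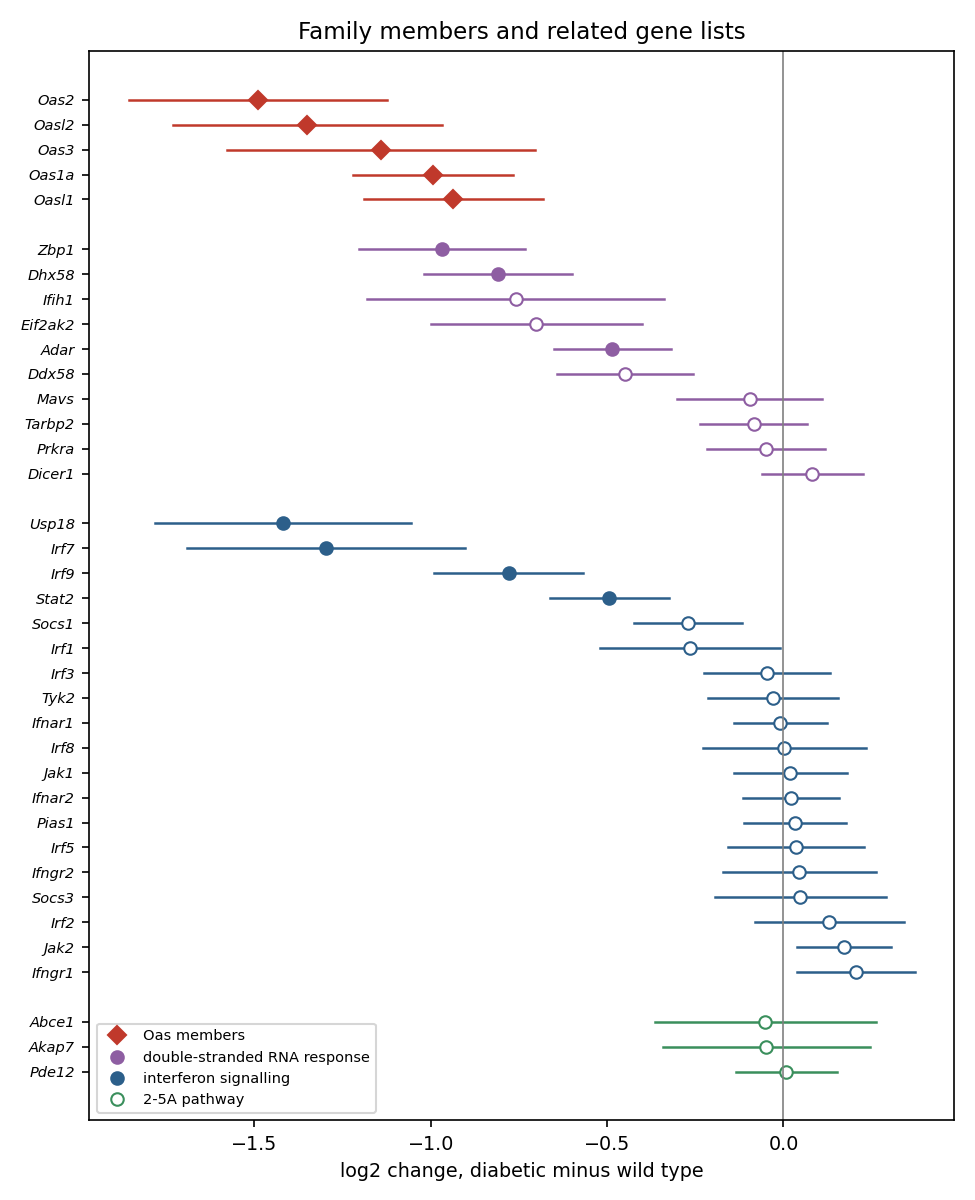
Log2 change, diabetic minus wild type (horizontal axis), with 95% intervals of the limma fit, for the 5 members (diamonds) and 3 related lists (circles, filled where the adjusted p was under 0.05). Among the circles, 3 genes of the double-stranded RNA list and 4 of the interferon signalling list are filled, and those of the list on oligoadenylate action are all open.

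The genes whose pattern over the 6 arrays was most like the mean profile of the members were ranked by Pearson's r among 5747 genes with at least the median SD. Parp9 (r = 0.998), Zbp1 (r = 0.998), Hikeshi (r = 0.996), Fcgr1 (r = 0.995), Irf7 (r = 0.995) and Dtx3l (r = 0.994) came first. Parp9 and Dtx3l form a complex of an ADP-ribosyltransferase relative and a ubiquitin ligase, Hikeshi imports heat shock proteins into the nucleus, and Fcgr1 is a high-affinity receptor for immunoglobulin G. The log2 changes of Parp9, Zbp1, Hikeshi, Fcgr1, Irf7 and Dtx3l were -0.56, -0.97, -0.25, -0.68, -1.30 and -0.45. Hikeshi and Dtx3l did not pass (adjusted p = 0.239 and 0.053 in limma), and the others did. With group means subtracted, the r of these 6 genes were 0.965, 0.958, 0.919, 0.921, 0.986 and 0.925. By that measure Gadd45g, Arhgef6, Phlda1, Fundc1, Cdc26 and Gbp3 came first, with r from 0.987 to 0.999. Of these only Gbp3, an interferon-induced GTPase, also had an r over 0.99 across the groups. The r of the others across the groups ran from -0.76 (Arhgef6) to 0.79 (Fundc1). The mean profile of the members ran from -0.69 to -0.46 on the diabetic arrays and from 0.35 to 0.78 on the wild type arrays. Any gene with a clear fall in diabetic marrow therefore gets a high r across the groups, through the contrast that picked the family. These r are descriptions over 6 arrays with no p.

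Marker genes of marrow cells were read beside the family. In bulk marrow, fewer cells of a type and less RNA per cell cannot be told apart. Of 10 macrophage markers, all tested, 9 were below 0 and 1 passed, Mertk, a receptor for the uptake of dead cells, at -0.47 ± 0.07 (SE, n = 3 per group, adjusted p = 0.0380 in limma). Without any 1 of the 6 arrays the adjusted p of Mertk was between 0.0540 and 0.251, so its call was lost each time. At an unadjusted p under 0.05, 7 of the 10 were lower and 0 higher, against 3.17% of all genes lower. The 1 macrophage marker above 0 was Adgre1, at 0.27 ± 0.14, and Csf1r, among the 9 below 0, was at -0.01 ± 0.07 (SE, n = 3 per group). C1qb, C1qc and C1qa were at -0.62 ± 0.12, -0.35 ± 0.12 and -0.32 ± 0.10. Siglec1, Mrc1, Cd68 and Vcam1 were at -0.34 ± 0.07, -0.34 ± 0.09, -0.25 ± 0.07 and -0.13 ± 0.07. The summed linear signal of the list was 10385 to 11468 on the diabetic arrays, against 11431 to 13579 on the wild type arrays. The groups overlapped slightly in this sum, in which the brightest markers weigh most. Marker by marker, all diabetic arrays were below all wild type arrays for Cd68, Mertk, Siglec1, C1qa, C1qb, C1qc and Mrc1. The same held for 5.38% of all genes. For Adgre1, Csf1r and Vcam1 the groups overlapped. The summed signal of the 5 members was 2621 to 3046 on the diabetic arrays, against 5358 to 7573 on the wild type arrays. The median log2 change was -0.33 for the macrophage markers. Among 6 tested markers of plasmacytoid dendritic cells, which make type I interferon, 0 passed in limma, and the median was -0.14. At an unadjusted p under 0.05, 3 were lower, Cox6a2, Bst2 and Tcf4, at -0.34 ± 0.06, -0.27 ± 0.06 and -0.21 ± 0.07 (SE, n = 3 per group). Siglech, a surface lectin of these cells, was at -0.07 ± 0.07, and Ccr9 and Irf8 were at 0.00461 ± 0.10 and 0.00288 ± 0.10. For monocytes, neutrophils, B cells, T and NK cells and erythroid cells, 0 of 3, 9, 7, 6 and 5 tested markers passed in limma, with medians of 0.05, -0.00143, -0.27, -0.06 and 0.04, and each summed signal overlapped between the groups. The B cell values turn on 1 array. All 7 B cell markers were lowest of the wild type arrays on replicate 3, where Cd79a had a log2 signal of 11.43, against 12.34 and 12.30 on wild type arrays 1 and 2. When wild type replicate 3 was left out, the median of this list was -0.57, with 2 of 7 passing, and the diabetic arrays were below the remaining wild type arrays for all 7. When wild type replicate 1 was left out, it was -0.07 with none passing. The medians of the monocyte, neutrophil, T and NK cell and erythroid lists lay on both sides of 0 when single arrays were left out, between -0.25 and 0.17, and 1 T and NK cell marker passed without wild type replicate 3. Leaving out arrays in this way was chosen for the marker lists after seeing the data. At an unadjusted p under 0.05 in limma, 1 monocyte marker was higher, 1 B cell marker and 1 T and NK cell marker were lower, and no neutrophil or erythroid marker passed. The part of macrophage content in the lower signal of the members was not tested.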

How the data were processed

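Marrow RNA of 6 samples was read on arrays, 1 per sample, and the groups follow the sample labels. The authors deposited log2 signals, 1 per probe set. The submitters' processing notes name RMA and Affymetrix Expression Console. RMA makes the distributions of the arrays equal, so a shift shared by most genes cannot be seen. No version or genome build is stated in the sources used here. Of 35556 probe sets, 21789 had 1 gene symbol in the platform annotation, and the brightest stood for a gene. Genes with a mean at or above 7.52, the 40th percentile, were kept, which gave 11940. Diabetic minus wild type was fitted in R 4.3.3 with limma 3.58.1 (lmFit, eBayes), two-sided, with no covariate and Benjamini-Hochberg adjustment over all genes tested, at a threshold of 0.05. Tables were made with data.table, version 1.17.8, pandas 2.3.3 and numpy 2.4.6 in Python 3.11.15, and figures used matplotlib 3.10.9.

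The members and all gene lists were chosen with earlier results of these data known. Named were the members, all tested genes of the oligoadenylate list, 6 genes of each signalling and sensor list with the smallest p, neighbours at the ends of the range, and 6 genes per likeness measure. Unnamed gene models were skipped, while markers were picked for the text with their values in view. The fit was tested on simulated data with known changes, with noise drawn for each gene on its own, unlike real arrays. At log2 changes of -1.6, -1.2, -0.6 and 0.6, set in 50 genes each, 100%, 98%, 80% and 78% were recovered. There were 11 false calls. Alternatives were other level filters, normalizations, probe set rules, eBayes settings, array weights, a replicate block, a threshold of 0.1, a shorter motif and leaving out each array. Protein sequences were not used here. Some genes and an allele named in the labels are not reported here.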

Additional observations from a re-analysis of the deposited data

How the results depend on the processing

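The log2 change of each member stayed below 0 under every alternative run. Of 74 values over the 5 members, 56 kept their side of the adjusted threshold in limma, 15 lost the call and 3, all of Oas3, gained it. Oas3 gained it with array weights, without wild type replicate 1 and at the threshold of 0.1. In the last case only the threshold moved, and its adjusted p in limma stayed at 0.0674. When 1 array was left out, the changes ran from -1.09 to -0.91 for Oas1a, -1.63 to -1.35 for Oas2, -1.34 to -0.995 for Oas3, -1.03 to -0.82 for Oasl1 and -1.50 to -1.21 for Oasl2. Oas1a lay below the level filter at the 60th percentile (8.53) and had no value there. Of 11940 genes, 49 passed in limma, and leaving out 1 array moved this to between 3 and 68. For the members the same range was 0 to 5 of 5, for the interferon signalling list 0 to 4 and for the double-stranded RNA list 0 to 5. With array weights 1131 genes passed, 8 in the interferon signalling list, 6 in the double-stranded RNA list and 2 among the neighbours (Dtx1 and Trafd1), but the estimate of the weights stopped before it converged. The replicate block left 2 genes in all and 0 members, 0 interferon signalling genes and 0 double-stranded RNA genes. The numbers are not taken to pair the samples, since same-numbered arrays had correlations of their deviations from the group means of 0.33, -0.04 and -0.05, and not every array matched its own number best. The count of genes on oligoadenylate action stayed at 0 throughout, with 855 of all genes at an unadjusted p under 0.05. The cause of the moved counts was not tested. Fits without 1 array or with the replicate block have fewer residual degrees of freedom, while the fit with array weights kept all arrays. The shorter motif GAAANNGAA occurred in 8.56% of all windows and again in those of Oas1a, Oas3, Oas1g and Oas1c.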
